A study of Mus musculus with 4 samples.

Results

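Luminal cells of the dorsolateral prostate (DLP) were compared between the RFP+ and RFP- sorts of intact reporter mice. Members were chosen by measured values. A cell was kept with 750 to 7500 detected genes and under 10% mitochondrial transcripts, was given to a sort by its MULTI-seq barcode counts, and was called luminal with at least 1 Epcam UMI (unique molecular identifier, 1 captured transcript), no Ptprc UMI, at least 5 Krt8+Krt18 UMIs and under 3 Krt5+Krt14 UMIs per 10000. In run 3, 180 cells met the rule, 87 RFP+ and 93 RFP-, out of 8533 cells kept in the 3 adult runs and 1553 intact luminal cells of any lobe. The 6 genes of the rule (Epcam, Ptprc, Krt8, Krt18, Krt5, Krt14) are therefore described and not read as findings.

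All cells came from P2-Runx1:RFP mice on the ICR (CD-1) strain, adults over 8 weeks old. In this knock-in line RFP is made from the proximal P2 promoter of 1 Runx1 allele, so RFP reports the activity of that promoter and the other allele supplies wild-type Runx1. Lobes were dissected and pooled between mice, and live EPCAM+ cells, basal and luminal mixed, were sorted as RFP+ or RFP- before barcoding and droplet capture. The DLP RFP+ barcode worked in run 3 only. The comparison therefore rests on 1 sum of UMIs for RFP+ (run 3) against RFP- sums of runs 3, 2 and 1 (93, 89 and 35 cells), all from intact mice. Runs 1 and 2 also held cells of castrated mice, not used here, and were sequenced on another instrument than run 3.

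Runx1 encodes a DNA-binding transcription factor that acts with Cbfb. The luminal cells of the mouse prostate secrete seminal proteins under androgen control, and which proteins they make depends on the lobe and on the distance from the urethra. Distal cells express lobe-specific products such as probasin (Pbsn), prostate transglutaminase (Tgm4), microseminoprotein (Msmb) and spermine-binding protein (Sbp), whereas cells of the proximal ducts express Psca and Krt4.

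The 8-base barcodes that name the sorts in run 3 are shown because every comparison rests on telling them apart. The 250 bases before the start of Runx1 (proximal start), Pbsn and Sbpl follow, the first because its promoter drives the reporter and the others because they represent the products that set the sorts apart (RefSeq, GRCm38.p6, 5′ to 3′ on the gene's strand).
DLP RFP+ barcode: TTAGCCAG
DLP RFP- barcode: GGACCCCA
Runx1, chr16:92697330-92697579, minus strand: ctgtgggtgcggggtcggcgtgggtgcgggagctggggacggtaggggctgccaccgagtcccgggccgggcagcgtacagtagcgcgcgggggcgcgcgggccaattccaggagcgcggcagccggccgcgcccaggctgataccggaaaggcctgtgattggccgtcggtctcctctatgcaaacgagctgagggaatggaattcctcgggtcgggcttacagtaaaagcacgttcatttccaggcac
Pbsn, chrX:77853501-77853750, minus strand: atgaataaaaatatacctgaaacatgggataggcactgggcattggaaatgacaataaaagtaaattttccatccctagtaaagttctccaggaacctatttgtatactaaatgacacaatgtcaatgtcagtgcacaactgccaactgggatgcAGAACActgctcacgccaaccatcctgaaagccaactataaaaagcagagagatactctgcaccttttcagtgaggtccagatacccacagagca
Sbpl, chr17:23955274-23955523, minus strand: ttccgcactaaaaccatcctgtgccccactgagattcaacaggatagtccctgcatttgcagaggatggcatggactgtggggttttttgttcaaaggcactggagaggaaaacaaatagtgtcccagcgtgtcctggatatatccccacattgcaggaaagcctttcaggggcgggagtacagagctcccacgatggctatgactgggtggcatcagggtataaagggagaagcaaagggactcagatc
Capitals mark the steroid hormone response half-site letters TGTTCT read on either strand (AGAACA). They occur 1 time before Pbsn and not before Sbpl, against 16.1% of 32851 windows of this length. The RUNX letters TGTGGT, searched on both strands and held by 14.0% of windows, were not found in the Runx1 window.

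After filtering, run 3 held 2243 cells of 3028 in the matrix, and 1988 were assigned to 1 of 6 sorts. Luminal cells made up 87 of 472 DLP RFP+ cells (18.4%, exact binomial 95% interval 15.0 to 22.2) and 93 of 394 DLP RFP- cells (23.6%, 19.5 to 28.1), with basal cells (Krt5+Krt14 of at least 3 per 10000) at 78.6% and 71.1%. In runs 1 and 2, 44.3% and 54.6% of DLP RFP- cells were luminal. The RFP+ luminal cells held more UMIs, with a median of 37548 per cell and 3734640 in all, against 18009 and 1865976 for RFP- of run 3. These intervals, and those on counts below, cover counting error only.

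Krt8, a luminal keratin, stood at 466 CPM (the UMIs of a gene scaled to a common total per sum) in RFP+ and at 636, 836 and 1099 CPM in RFP- of runs 3, 2 and 1, and Krt18 at 1097 against 1451, 1255 and 1518 CPM. Of the markers of other cells, the 6 endothelial genes summed to 4.82 CPM in RFP+ and 8.58 in RFP- of run 3, with Cdh5, Kdr and Emcn at 0 in both. The 8 fibroblast and smooth muscle genes summed to 63.2 and 32.7 CPM with Col1a1, Lum, Pdgfra and Myh11 at 0 in both, and the 5 urothelial genes to 120 and 196 CPM with Upk3a and Krt20 at 0 in both. Between 0 and 3 cell barcodes were shared by a pair of runs.

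One feature of the RFP+ sum stood apart. Sbp, a secreted spermine-binding protein, took 31.0% of all its UMIs, and Spink1, a secreted protease inhibitor, another 10.4%. In RFP- the values were 2.15%, 14.9% and 11.5% for Sbp and 0.823%, 5.54% and 1.46% for Spink1 in runs 3, 2 and 1, and in RFP+ cells of the ventral prostate (VP) of run 3 they were 32.6% and 17.5%. The RFP+ value of Sbp lay near that of the VP and above all 3 RFP- sums. A sum has one total, and over the 2335 genes with at least 50 CPM in either sum, the median log2 ratio of RFP+ to RFP- was -0.73 in CPM. Levels below are given as CPM, and fold changes are edgeR estimates on TMM-scaled libraries, where the median over all genes was -0.01. A lone RFP+ sum can be the highest or lowest of the DLP sums with no true difference. The share of all genes with RFP+ outside all 3 RFP- sums was not counted, so such positions, here and later, are description only. On the CPM scale, the median of -0.73 also makes a position below the RFP- sums more common. In sums of cells, fewer cells that make a transcript and less of it per cell cannot be told apart.

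Runx1 itself, the reporter gene, was measured at 25.4 CPM in RFP+ luminal cells (95 UMIs, exact Poisson 95% interval 20.6 to 31.1) and at 13.9 CPM in RFP- of run 3 (26 UMIs, 9.1 to 20.4). RFP- of runs 2 and 1 had 23.7 and 19.7 CPM, so the RFP+ value lay above all 3 RFP- sums, the nearest by little. The edgeR log2 fold change was 0.98 ± 0.48 (SE) and did not pass (adjusted p = 0.314). In the basal cells sorted alongside, Runx1 stood at 131 CPM in RFP+ and 77.0 in RFP-. Within the RFP+ luminal cells it was uneven: 14.2 CPM (10.3 to 19.2) in the cells rich in Sbp and 167 CPM (113 to 239) in those rich in Psca, as defined next. Of its family, Runx2 had 1.61 CPM in RFP+ and 0.536 in RFP- of run 3, Runx3 was not seen in RFP- of run 3, and Cbfb, the shared partner subunit, had 6.69 against 18.2 CPM (log2 fold change -0.87 ± 0.36, adjusted p = 0.216).

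The cells of each sort differed in the secretory genes they carried. These sets were drawn after the values were seen and are described with no test. A cell was placed in the Sbp set with at least 1% of its UMIs from Sbp, Spink1 and Sbpl, in the Tgm4 set with at least 1% from Tgm4, Pbsn and 9530053A07Rik, in the Msmb or Svs set (Svs2, Svs4, Svs5, Pate4, genes of the seminal vesicle) by the same level, and in the Psca set with at least 0.1% from Psca, Krt4, Wfdc2 and another proximal gene. The sets are ranges of a score and not cell types.

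The Sbp set held 49 of the 87 RFP+ cells (56.3%, exact binomial interval 45.3 to 66.9) and 7 of the 93 RFP- cells (7.53%, 3.08 to 14.9). In the 49 RFP+ cells the 3 genes took a median of 55.7% of UMIs, and these cells, with a median of 59209 UMIs each, contributed 80.8% of the RFP+ luminal UMIs. The remaining RFP+ cells had a median of 0.138% and the remaining RFP- cells 0.121%, a low level of like size in both. Only 2 RFP+ and 4 RFP- cells lay within 2-fold of the 1% limit.

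The Tgm4 set showed the opposite split, with 68 RFP- cells (73.1%, 62.9 to 81.8) and 4 RFP+ cells. Their 3 genes took a median of 6.58% of UMIs in the RFP- cells. The Msmb set held 16 RFP- and 5 RFP+ cells, and 10 of those 16 were also in the Tgm4 set. The Svs set held 8 RFP- cells, where its 4 genes took a median of 33.6% of UMIs, and 2 RFP+ cells. No RFP+ cell met both the Sbp and the Tgm4 limit, and 4 RFP- cells did.

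The Psca set held 17 RFP+ cells (19.5%, 11.8 to 29.4) and 0 of 93 RFP- cells of run 3, which allows a share of up to 3.23% (3 counts of the total). In RFP- of runs 2 and 1, however, 7 of 89 and 7 of 35 cells were in it, so that the share in RFP+ lay inside the range of the RFP- runs. For the Sbp, Tgm4 and Svs sets the order was that of run 3 in every run, whereas the Msmb set held 11 and 0 RFP- cells in runs 2 and 1. The Sbp set held 19 of 89 and 4 of 35 RFP- cells in runs 2 and 1, and the Tgm4 set 49 and 15. In all, 15 RFP+ and 9 RFP- cells of run 3 were in none of the 5 sets, with medians of 9964 and 8758 UMIs.

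**Figure D1:**
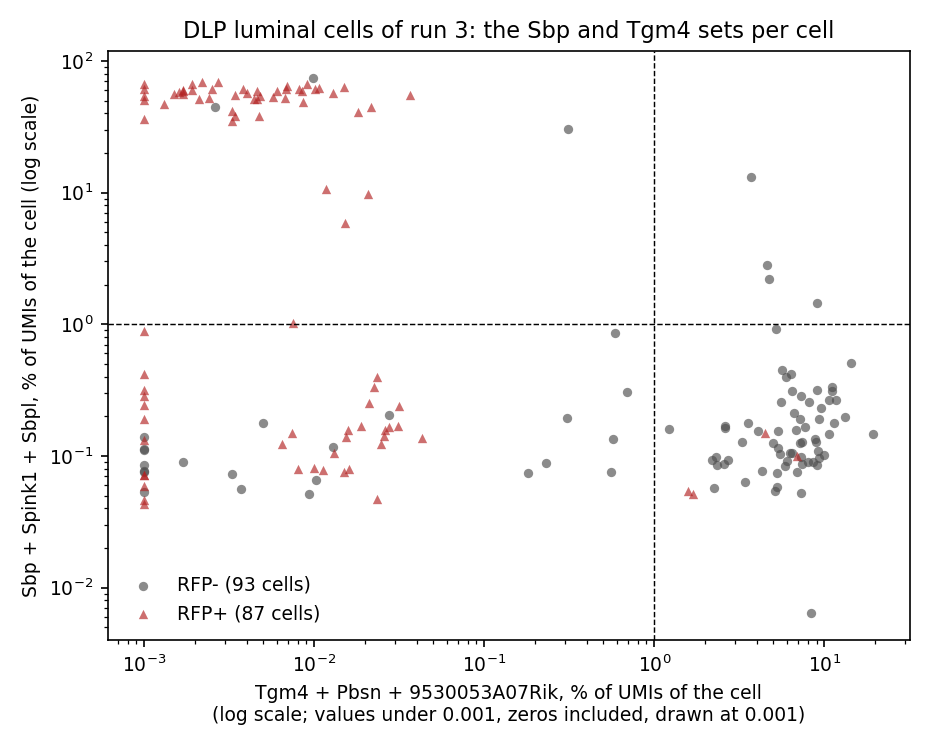
Each point is 1 DLP luminal cell of run 3 (triangles RFP+, circles RFP-), with the share of its UMIs from the 3 genes of the Tgm4 set on the x axis and of the Sbp set on the y axis, both in percent on log scales, and dashed lines at 1%. The RFP+ cells split between the upper left, with 49 cells over the Sbp limit, and the lower left, whereas 68 RFP- cells lie to the right of the Tgm4 limit.

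**Figure D2:**
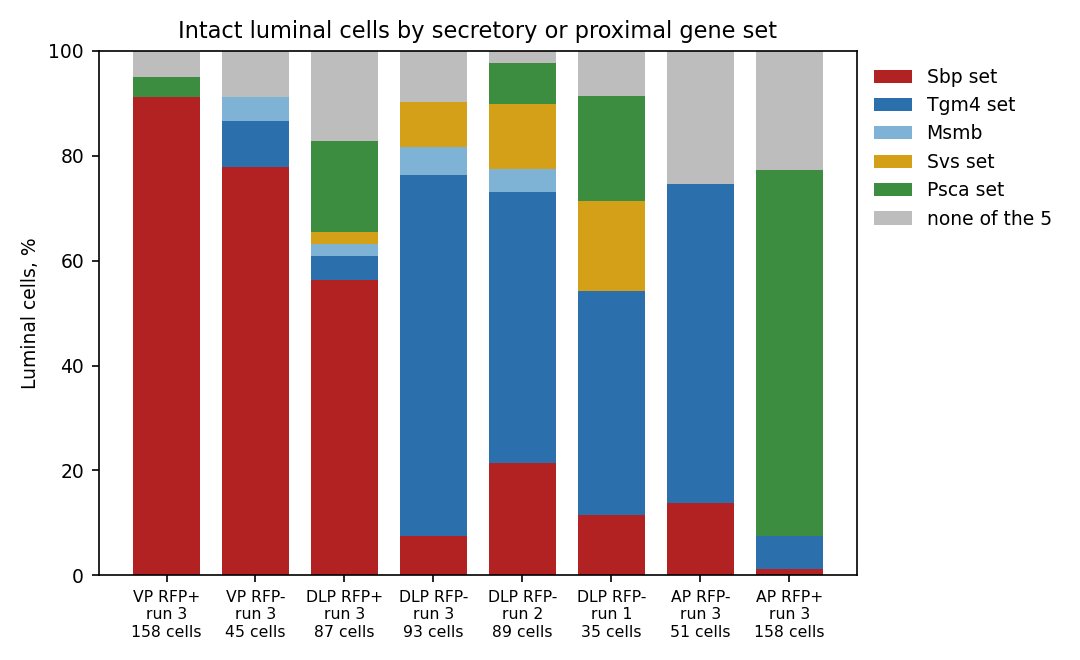
Bars give the percentage of intact luminal cells of each sort and run in each set, a cell in several sets being drawn in the one listed highest. The DLP RFP+ bar has 56.3% of its cells in the Sbp set, between DLP RFP- (7.53% in run 3) and VP RFP+ (144 of 158 cells), and 1 in 5 or fewer in any other set.

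The Sbp-set cells of DLP RFP+ were close in level to the Sbp-set cells of the VP. Of 1281 genes with at least 50 CPM in either, 25 (1.95%) differed by at least 2-fold between the 49 DLP RFP+ and the 144 VP RFP+ cells of run 3. Among the 8 highest in the DLP cells were Mmp7, a matrix metalloproteinase, S100a6, Id1, Msmb and Defb50, and among the 8 lowest Scgb1b20, Scgb2b20, Pigr and Tgm4. Against the 64 Tgm4-set cells of DLP RFP-, 56.5% of 2352 genes differed by at least 2-fold, with a median log2 ratio of -1.06, and 21.3% did after centring on that median (1.87% for the VP RFP+ pair). The barcodes of these 49 cells were clear: their DLP RFP+ counts were a median of 16.9 times that barcode's median over the library, whereas the VP RFP+ and VP RFP- barcodes stood at 1.04 and 0.941 times theirs. A barcode was added after dissection and sorting, so it names the sorted sample and not the lobe a cell grew in: cells of the DLP with this profile and VP tissue carried into the DLP sample cannot be told apart here. This holds for every value of DLP RFP+ that rests on its Sbp-set cells. Tgm4-set RFP- cells of the DLP and of the anterior prostate (AP) were at least 2-fold apart in 7.16% of 2513 genes. The 15 Psca-set RFP+ cells in neither of the other 2 sets differed by 2-fold from 110 such AP RFP+ cells in 8.13% of 2990 genes. In each such pair of lobes the same set chose the cells on both sides, so part of their likeness follows from that choice. In the run 3 sums of all luminal cells, after centring, DLP RFP- differed from AP RFP- in 6.59% of 2444 genes. From VP RFP- it differed in 16.8% of 2328 genes.

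In the run 3 sums, 61 genes (2.61% of 2335) were at least 2-fold higher in RFP+ and 713 (30.5%) at least 2-fold lower, with 1 sum per group and no test. This split moved with the scale: with totals taken without the 50 most abundant genes it was 250 higher and 275 lower, and with TMM factors 141 and 160. Fitted together with the other sorts and with run as a block, edgeR's quasi-likelihood test with Benjamini-Hochberg adjustment, the source of every adjusted p here, called 336 of 10795 genes (3.11%). RFP+ had 132 of them (1.22%) at a higher and 204 (1.89%) at a lower level, or 191 and 152 with library sizes taken without the 50 most abundant genes. The lone RFP+ sum is assumed to vary like the others. Without the run block 17 and 32 genes passed, and with the 4 DLP sums alone none did (791 of 9354 genes at an unadjusted p under 0.05). All 336 genes kept their direction under the former and all 333 that could be tested under the latter. Both fits reuse the same DLP sums, so the kept direction was close to fixed in advance and is no independent support.

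**Figure D3:**
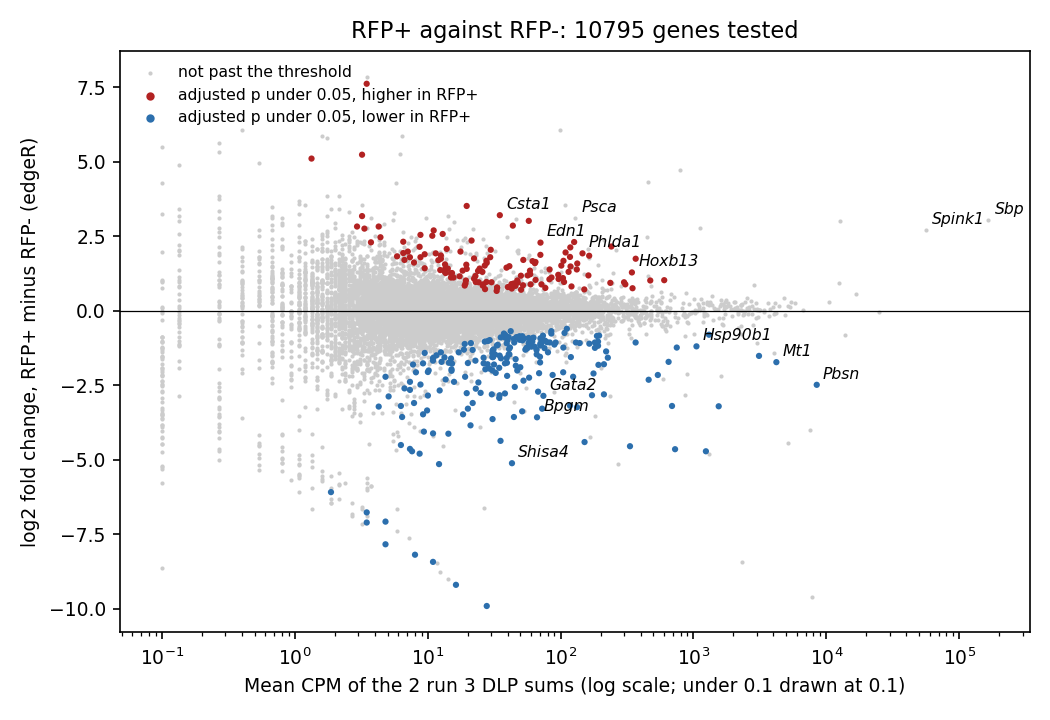
Each point is 1 of 10795 genes, with its mean CPM in the run 3 DLP sums (x axis, log scale) and its edgeR log2 fold change of RFP+ over RFP- (y axis). Coloured points passed the threshold, 132 above and 204 below 0, and the abundant Sbp and Spink1 lie above 0 in grey, since they did not pass.

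Among secretory products, Pbsn, the androgen-driven probasin, fell from 15730, 7668 and 8336 CPM in RFP- of runs 3, 2 and 1 to 1199 CPM in RFP+. The RFP+ value lay below all 3 RFP- sums, at a log2 fold change of -2.49 ± 0.60 (adjusted p = 0.0408). Tgm4, which cross-links seminal proteins, had 10180, 6561 and 7691 CPM in RFP- and 197 in RFP+, again with no overlap, but its estimate of -4.45 ± 1.30 did not pass (adjusted p = 0.0805). Nor did the products that were abundant in RFP+. Sbp had 309800 CPM in RFP+ against 21540, 148700 and 115400 (3.04 ± 1.73, adjusted p = 0.397), and its relative Sbpl 23680 against 1536, 14970 and 7796 (3.00 ± 1.81, 0.426). Spink5, a protease inhibitor, had 2240 against 14.5, 1930 and 1239 CPM, and the retinoid-binding Crabp1 209 against 6.97, 58.2 and 25.5 CPM (3.54 ± 1.19, adjusted p = 0.132). Here the RFP- runs themselves spread widely, with run 3 the lowest for all 4 genes. Sbp and its adjusted p are given although the gene lies outside the naming rule, chosen after its values were seen. Of the 12 distal secretory genes, 1 passed, Pbsn, against 3.11% of all genes. The median log2 fold change of the list was 0.62 against -0.01 over all genes.

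Of 16 androgen-response genes, 2 were lower and none higher, against 1.89% and 1.22% of all genes. Besides Pbsn, Tmprss2, a membrane serine protease, fell to 11.8 CPM from 57.9, 47.3 and 78.8 (-1.51 ± 0.25, adjusted p = 0.00707), a drop seen against every RFP- sum. Fkbp5, an androgen-induced immunophilin, had 57.0 CPM in RFP+ against 53.1, 62.6 and 27.8 CPM (0.88 ± 0.26, adjusted p = 0.0817). The genes of the list thus did not move together: 9 of 16 estimates were above 0, with a median of 0.46.

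Of 19 genes that fold and export secreted proteins in the endoplasmic reticulum (ER), 4 fell in RFP+ and none rose. Over all genes 1.89% fell and 1.22% rose. The median log2 fold change of the list was -0.53. DESeq2 called 10 of the 19, and without the Sbp-set cells described above none of the 4 passed, although Hsp90b1, Pdia4 and Creld2 stayed at log2 fold changes of -1.03, -0.78 and -1.14. Hsp90b1, the ER form of the Hsp90 chaperone, fell from 1679, 1258 and 2595 CPM to 429 (-1.20 ± 0.22, adjusted p = 0.00993). The disulfide isomerases Pdia4 and Pdia6 had 73.4 and 612 CPM in RFP+, under the lowest RFP- values of 222 and 1604, with changes of -1.07 ± 0.23 (adjusted p = 0.0258) and -0.81 ± 0.20 (0.0411). Creld2, an ER stress protein, had 78.5 CPM against 285, 241 and 1055 (-1.25 ± 0.31, 0.0443). The calcium-binding chaperone Calr had 394 against 1343, 958 and 1420 CPM and did not pass (-0.86 ± 0.22, 0.0525), nor did Hspa5, with 1041 against 3509, 2460 and 2058 (-0.79 ± 0.24, 0.0993). On the CPM scale, 12 of 17 members with enough UMIs were at least 2-fold lower, against 30.5% of all genes on this scale, and 3 of 17 lay above the median gene. Per cell, the list summed to a median of 53.4 UMIs per 10000 in RFP+ (quartiles 42.3 and 74.5) and 170 in RFP- of run 3 (117 and 210). RFP- of runs 2 and 1 had medians of 137 and 104. In run 3 the medians of VP RFP+ and VP RFP- were 52.5 and 64.8. In the 49 Sbp-set cells of RFP+, the 3 genes of that set took a median of 55.7% of UMIs, which lowers the share left for all other genes. The same limit holds for the per-cell sums of the later lists.

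Among epithelial transcription factors, 1 of 15 rose and 1 fell, against 1.22% and 1.89% of all genes. In a list this small, 1 call each way is not read as a result about the list. Gata2, a zinc-finger factor, had 9.91 CPM in RFP+ and 139, 101 and 148 in RFP- (-2.86 ± 0.39, adjusted p = 0.00326). Hoxb13, a homeobox factor of the prostate, rose to 421 CPM from 268, 340 and 298 (1.28 ± 0.31, 0.0397). Gata3 (38.3 against 183, 119 and 150 CPM) and Sox4 (15.0 against 69.7, 33.5 and 49.9) were under every RFP- value without passing (adjusted p = 0.108 and 0.0598).

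Metal and polyamine genes contributed 3 lower calls of 11, against 1.89% of all genes, and none higher. Without the Sbp-set cells none of the 3 passed, with Mt1, Mt2 and Sms at log2 fold changes of -1.50, -1.06 and -0.75. The metallothioneins Mt1 and Mt2, which bind zinc, fell to 1130 and 292 CPM from lowest RFP- values of 2375 and 429 (-1.73 ± 0.37, adjusted p = 0.0258, and -1.24 ± 0.26, 0.0224). Sms, the spermine synthase, had 28.9 CPM against 98.6, 79.9 and 44.1 (-1.21 ± 0.25, 0.021). The zinc exporter Slc30a2 was at 16.1 CPM in RFP+ and 115, 78.9 and 117 in RFP- but did not pass (adjusted p = 0.174). In single cells the list summed to a median of 18.1 UMIs per 10000 in RFP+, on the scale that the Sbp-set products lower there. RFP- had medians of 82.0, 45.9 and 23.5 in runs 3, 2 and 1, so the gap was far smaller against run 1. In run 3, VP RFP+ and VP RFP- had 10.1 and 16.8. Of 12 detoxification genes, Gstm2, a glutathione transferase, fell to 86.8 CPM from 367, 300 and 452 (-1.58 ± 0.31, 0.0157) and none rose. Cbr2, a carbonyl reductase, had 473 CPM in RFP+ and 47.7, 331 and 460 in RFP- (2.02 ± 0.65, 0.115).

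For antigen presentation, 2 of 9 genes rose, the class I heavy chains H2-D1 (1.02 ± 0.22, adjusted p = 0.0227) and H2-K1 (1.01 ± 0.24, 0.0364), and none fell. Over all genes 1.22% rose and 1.89% fell. In CPM, H2-K1 had 555 in RFP+ and 392, 441 and 429 in RFP-, above every sum, whereas H2-D1 had 731 against 475, 654 and 828, inside their range. Their partner B2m went the other way without passing (-1.10 ± 0.36, 0.124), at 1573 CPM in RFP+ and 4391, 3621 and 5402 in RFP-. Of the 10 junction genes 1 passed, against 3.11% of all genes. Cldn10, a claudin, rose to 163 CPM from 55.2, 91.7 and 125 (1.95 ± 0.41, 0.021), while Cldn4, Cdh1 and F11r had estimates between -0.29 and 0.05.

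Of 18 proximal luminal genes, 1 rose and 1 fell, against 1.22% and 1.89% of all genes, although 16 estimates were above 0 (median 1.00). Psca, a surface antigen of proximal cells, had 258 CPM in RFP+ and 0.536, 185 and 1191 in RFP- (3.09 ± 1.61, adjusted p = 0.348). It came from few cells, at 4633 CPM in the 15 RFP+ cells of the Psca set and 43.1 in those of the Sbp set. Wfdc2, a secreted inhibitor, had 115 against 1.07, 180 and 248 CPM and Ly6a, the Sca-1 antigen, 72.3 against 23.0, 84.8 and 212, so that the RFP- runs spanned the RFP+ value for all 3 genes. Ly6e rose (1.06 ± 0.27, 0.0489) with 108 CPM in RFP+ and 85.2, 141 and 210 in RFP-, inside their range on that scale. Prom1, which encodes the CD133 antigen, fell to 6.16 CPM from 70.2, 45.3 and 47.5 (-2.78 ± 0.38, 0.00326). Per cell, the list summed to a median of 15.8 UMIs per 10000 (quartiles 8.33 and 81.6) in RFP+. RFP- had 20.7 (13.7 and 27.2), 24.3 (14.6 and 34.8) and 40.8 (28.3 and 99.3) in runs 3, 2 and 1. The RFP+ cells thus spread more widely than RFP- of run 3, but the upper quartile of RFP- in run 1 lay above that of RFP+.

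None of the antimicrobial (10 tested), immediate early and dissociation stress (15) or proliferation (12) genes passed in edgeR (2, 3 and 2 at an unadjusted p under 0.05) or in DESeq2. Among the stress genes Dusp1, a phosphatase, had 187 CPM in RFP+ and 59.5, 54.7 and 184 in RFP-, and Egr1 328 against 922, 520 and 494. Per cell the stress list had a median of 67.7 UMIs per 10000 in RFP+ and 61.3, 57.4 and 113 in RFP- of runs 3, 2 and 1. The antimicrobial iron-binding Lcn2 stood at 58.6 against 29.5, 23.7 and 66.1 CPM.

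**Figure D4:**
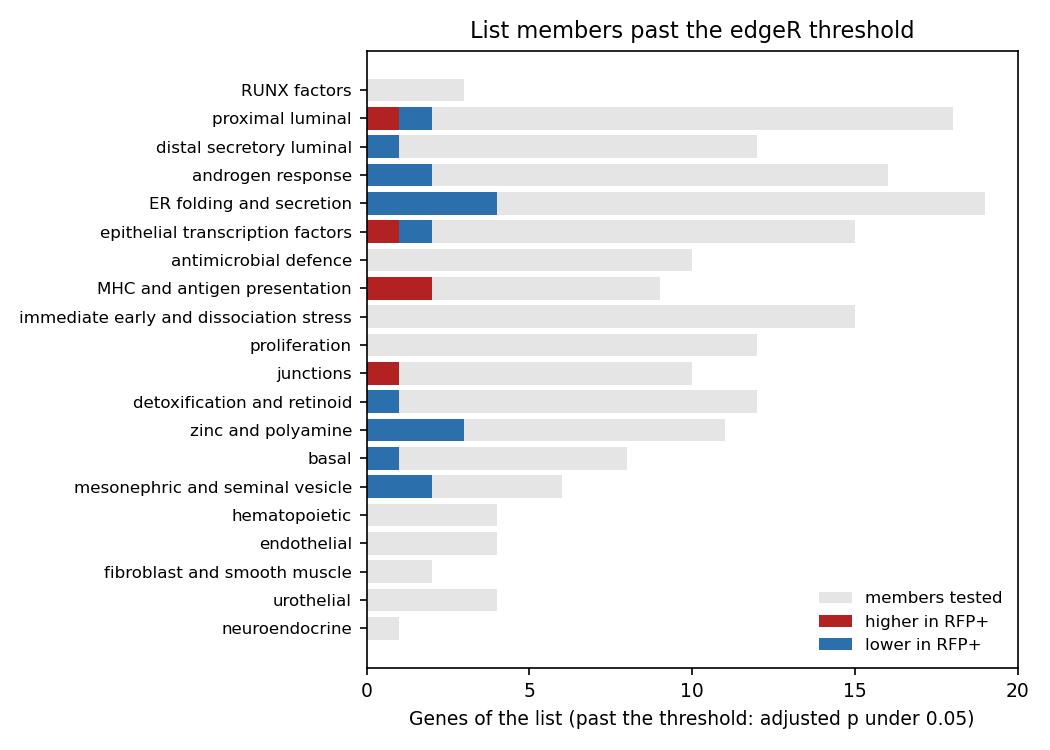
Bars give the number of tested genes of each list (grey), with those past the threshold higher in RFP+ (red) or lower (blue). ER folding has the most lower calls, 4 of 19, followed by zinc and polyamine with 3 of 11, and MHC the most higher calls, 2 of 9. Over all genes 1.22% were called higher and 1.89% lower.

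The largest decreases past the threshold among genes with at least 50 CPM included several that RFP- cells make in quantity. Gm5615 had 2437, 1435 and 1173 CPM in RFP- and 45.0 in RFP+ (-4.72 ± 1.09, adjusted p = 0.0347). Chn2, a regulator of Rac, had 1428, 963 and 928 against 27.0 (-4.65 ± 1.16, 0.0444), and Tcaf3, a TRP channel partner, 651, 340 and 202 against 15.3 (-4.55 ± 0.68, 0.00537). Gsdma, a gasdermin, went from 296, 236 and 299 to 6.96 CPM (-4.41 ± 1.08, 0.0408). In the RFP- Tgm4-set cells these 4 genes stood at 3501, 1995, 862 and 429 CPM, and in the RFP+ Sbp-set cells each was under 2 CPM. Vnn1, a pantetheinase, followed the same pattern, with 119 CPM in the former and 0.663 in the latter, and fell overall from 85.8, 39.4 and 42.9 to 3.48 CPM (-3.57 ± 0.59, 0.00702). Gdpd5, a glycerophosphodiesterase, fell from 59.0, 36.0 and 70.7 to 2.68 CPM (-3.64 ± 0.33, adjusted p = 0.000243), with 80.7 CPM in the Tgm4-set cells.

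Others came from different RFP- cells. Shisa4 had 84.7, 174 and 208 CPM in RFP- and 1.61 in RFP+ (-5.12 ± 0.55, 0.0011), and Nefh, the heavy neurofilament, 68.6, 199 and 144 against 2.14 (-4.37 ± 0.44, 0.00126). Both had under 2 CPM in the RFP- Tgm4-set cells, so they stood higher in the remaining RFP- cells. Bpgm, the red-cell bisphosphoglycerate mutase, had 127, 123 and 61.5 against 6.16 (-3.58 ± 0.45, 0.00237), with 19.8 CPM in Tgm4-set cells. Gm17689, with 55.7, 7.39 and 66.1 CPM in RFP-, had no UMI in RFP+, which allows up to 0.803 CPM, and passed at adjusted p = 0.00635.

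The largest increases were smaller. Csta1, the protease inhibitor cystatin A, had 66.7 CPM in RFP+ and 3.22, 28.1 and 5.80 in RFP- (3.20 ± 0.76, 0.0365). Edn1, the vasoconstrictor endothelin, had 125 against 16.1, 62.1 and 13.9 (2.28 ± 0.54, 0.0381), and Asrgl1, an asparaginase, 214 against 39.1, 142 and 51.0 (2.30 ± 0.49, 0.0241). Abo, the blood-group glycosyltransferase, rose to 380 CPM from 103, 240 and 164 (2.15 ± 0.46, 0.0254), and Timp4, a metalloproteinase inhibitor, to 197 from 40.2, 91.2 and 109 (2.12 ± 0.42, 0.0172). Phlda1 had 221 against 71.3, 88.2 and 116 CPM (1.92 ± 0.28, 0.0049) and Gchfr, which regulates GTP cyclohydrolase, 102 against 39.1, 65.1 and 41.7 (1.87 ± 0.35, 0.0126). RFP+ was above all 3 RFP- sums for each of them, but they were named for the size of their increase, so this adds no support. Gm42031 (99.9 against 15.5, 14.3 and 34.8 CPM) and Dcaf12l1 (75.8 against 11.8, 18.7 and 38.3) completed the 10 with Cldn10, at adjusted p = 0.00537 and 0.0269. Csta1, Asrgl1, Abo, Timp4, Gchfr and Dcaf12l1 were at 80.8, 255, 432, 222, 119 and 92.8 CPM in the RFP+ Sbp-set cells, against 70.5, 283, 416, 217, 120 and 43.0 in VP RFP+, where only Dcaf12l1 was over 2-fold apart. Edn1 and Phlda1 were instead highest in the Psca-set cells, at 563 and 691 CPM.

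**Figure D5:**
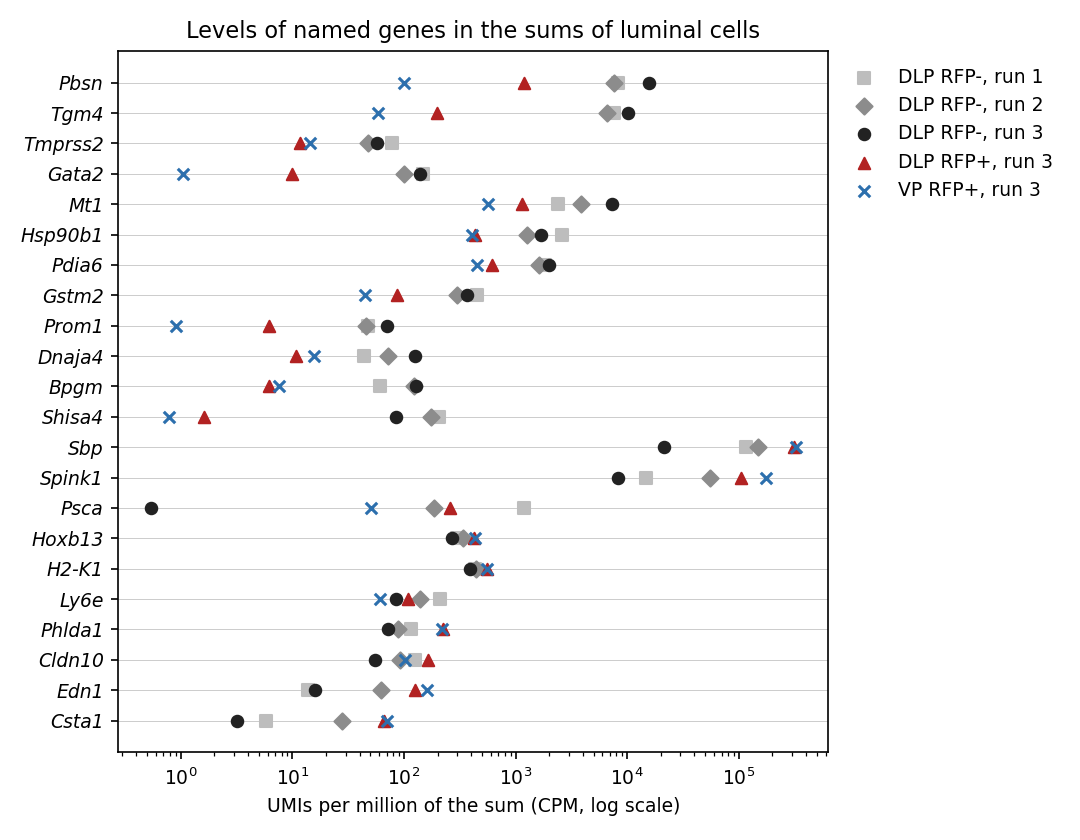
Points give the CPM (log scale) of named genes in the 4 DLP sums and in VP RFP+ of run 3. For Pbsn, Tmprss2, Gata2, Gstm2, Bpgm and Shisa4 the RFP+ triangle lies left of all 3 RFP- points, whereas for Psca the RFP- points span it, from 0.536 to 1191 CPM.

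Fewer genes passed without the Sbp-set cells. With those cells left out of every sort, a check added after seeing the data, the RFP+ sum kept 715857 UMIs of 38 cells, and 25 genes passed, 18 higher and 7 lower (1069 at an unadjusted p under 0.05). Of the 336 genes, 18 were called again in the same direction, and 312 of the 329 still testable kept their direction. The VP sums were left with 9 to 14 cells each, and fewer calls through smaller sums and through the loss of these cells cannot be told apart. The 7 lower ones were Shisa4, Nefh, Bpgm, Dnaja4, Gdpd5, Yeats2 and Ibtk. Dnaja4, a J-domain co-chaperone, had 16.8 CPM in these RFP+ cells and 130, 114 and 58.2 in RFP- (-2.97, adjusted p = 0.0318). The higher ones included Phlda1, Edn1, Ly6e and Lbp, the lipopolysaccharide-binding protein, all called with every cell as well, as was the next, with Ctgf, a matricellular growth factor, at 76.8 CPM against 4.74, 4.29 and 15.3 (3.84, 0.0176). Others had not passed with all cells. Anxa2, a phospholipid-binding annexin, had 379 against 55.1, 158 and 292 (2.36, 0.0176) and was not called with all cells (adjusted p = 0.0805). Dusp6, a phosphatase of ERK, had 92.2 against 8.30, 9.45 and 1.53 (3.39, 0.0343) and the transglutaminase Tgm2 27.9 against 4.15, 3.43 and 3.06 (2.92, 0.0343). The keratin Krt6a, called with all cells too, was seen at 14.0 CPM in RFP+ and at 0, 3.43 and 0 in RFP-. These genes were named because they passed, after their values were seen. Runx1 without the Sbp-set cells stood at 72.6 CPM (54.3 to 95.3) in RFP+ and 15.4 (10.1 to 22.6) in RFP- of run 3. Its edgeR log2 fold change was 1.86. Without these cells Pbsn had 6121 against 16820 CPM in run 3, Gata2 36.3 against 144, Hsp90b1 813 against 1744 and Mt1 2419 against 7522. Neither Runx1 nor any of these genes passed in this setting, and their RFP- levels here are of run 3 only. Sbp itself was then at 971 and 865 CPM.

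The RFP effect of the DLP was set against those of the other lobes by the interaction in the same fit. Against the AP, 465 genes differed (4.31%), 253 with a higher (2.34%) and 212 with a lower (1.96%) effect in the DLP, but 113 without run 2, 1 without the run block, and none without the Sbp-set cells (854 at an unadjusted p under 0.05). Against the VP, 6 genes differed (0.0556%), 2 higher (0.0185%) and 4 lower (0.0371%), with 1126 at an unadjusted p under 0.05, 29 by DESeq2 (1 of the 6 among them), 26 without run 1, 16 without run 2, 0 without the run block and 1, none of the 6, without the Sbp-set cells. The RFP effect was lower in the DLP than in the VP for Bpgm, Gdpd5 and Dnaja4, with differences of -3.88 ± 0.57, -3.03 ± 0.47 and -2.89 ± 0.40 (adjusted p = 0.0339 for each). Tmprss2 likewise had a lower effect (-1.93 ± 0.31, 0.0406). These are differences between effects and do not mean that the genes fell in the VP. Both VP sorts of run 3 had low Bpgm, at 7.66 CPM in RFP+ and 8.76 in RFP-, whereas the DLP had 6.16 and 127. Mal, a membrane proteolipid, differed by 2.48 ± 0.40 (0.0406), with 30.3 and 67.0 CPM in DLP RFP+ and RFP- and 2.08 and 18.2 in the VP. Lbp completed the 6 (1.77 ± 0.27, 0.0339), with 128 CPM in DLP RFP+ and 74.5, 77.4 and 121 in RFP-. The DLP RFP+ sum enters both interactions, and the values above carry its error.

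After centring, 3.99% of 1455 genes differed by at least 2-fold between the DLP RFP+ sum and VP RFP+ of run 3, 14.4% of 2499 between it and AP RFP+, and 13.1% of 2335 between it and DLP RFP-. The DLP RFP- sums of runs 3 and 2 differed in 4.44% of 2364 genes, and those of runs 3 and 1 in 15.6% of 2605. The last value is about as large as that between RFP+ and RFP-, and the run 1 sum holds 35 cells.

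Genes of the seminal vesicle were seen in RFP-. Svs2 fell from 1294, 1556 and 6522 CPM to 86.0 in RFP+ (-3.20 ± 0.71, adjusted p = 0.0281), and Svs6, with no UMI in RFP+, also passed. Svs5 had 15650, 33130 and 61100 CPM against 9.91 and Svs4 4599, 11530 and 14290 against 6.69, and neither passed (adjusted p = 0.0717 and 0.0693). In all, 2 of the 6 tested genes of this list passed, both lower, against 1.89% of all genes. Without Svs-set cells 133 genes were higher and 220 lower overall. Of the hematopoietic markers Cd52 had 387 CPM in RFP+ and 2816, 2026 and 3461 in RFP- (-2.18 ± 0.73, 0.129), while Laptm5, Fcer1g, Coro1a, Rac2 and Itgam were at 0 in both sorts of run 3. Of 8 basal markers, Itga6, an integrin, fell (-0.90 ± 0.21, adjusted p = 0.0339; 17.4 CPM against 53.6, 38.0 and 22.0), but had 67.1 against 57.5 CPM in run 3 without the Sbp-set cells. Krt15 stood at 294 CPM in RFP+ and 87.9, 140 and 353 in RFP-, with 4205 CPM in the Psca-set cells (adjusted p = 0.333). The neuroendocrine marker Chga had 0.268 against 52.5, 121 and 5.80 CPM (adjusted p = 0.0756), and Syp was at 0 in both sorts. Apart from the fit without Svs-set cells, the part that cells of these kinds had in the comparison was not tested.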

How the data were processed

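Single live EPCAM+ cells of RFP+ and RFP- sorts were captured with 10x 3′ v3 chemistry, 1 library per run with all sorts pooled. The authors deposited raw UMI counts per gene and cell and counts per MULTI-seq barcode, made with Cell Ranger 3.1.0 and Seurat 3.1.5 per the submitters' processing notes, on mm10 (GRCm38). The study's methods limit cells to under 7500 UMIs; here the limit was 7500 genes, since only 9 DLP RFP+ luminal cells met the former. Each barcode count was divided by its library median, and a cell took the barcode whose ratio was at least 3 and at least 2 times the next. Sorts were named by barcode number, since the 8-base field of the VP repeats that of the AP in the deposited sheet of run 3, which does not touch the DLP. No doublet caller was run.

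UMIs were summed over luminal cells per sort and run, giving 16 sums of at least 10 cells and 740456 to 7699402 UMIs. edgeR 4.0.16 (R 4.3.3, TMM, filterByExpr, quasi-likelihood test, Benjamini-Hochberg over all genes, threshold 0.05) was fitted with sort and run. Runs share 1 library and pooled mice: deviations of same-run sums correlated by 0.011 to 0.506 (30 pairs, median 0.293) and those of different runs by -0.358 to 0.178. P-values rest on the spread between pools of the sorts with several runs, which is borrowed for the lone DLP RFP+ sum. Fold calls between the run 3 sums needed at least 2-fold and at least 50 CPM, with 0 set to 3 UMIs.

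Tested on simulated data of this comparison (10549 genes), 38 of 100 genes changed 2-fold and 92 of 100 changed 4-fold were recovered, with 6 false calls in 136. Outside the changed genes, the simulated RFP+ sum had the RFP- means of run 3, with the spread fitted to all sums. It therefore left out the high Sbp share of the real sum and assumed that the lone sum varies like the others. Named genes are Runx1, up to 4 per list by size of the run 3 ratio, the 10 largest changes each way past the threshold with at least 50 CPM, and up to 5 per interaction. Further genes are named where they passed in a list. The members and lists were chosen with earlier results of these data known. Alternatives were other scalings, filters, barcode and keratin limits, DESeq2 1.42.0, leaving out runs and thinning to 3000 UMIs. Sequences are from RefSeq. A few list members are counted but not reported here by name.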

Additional observations from a re-analysis of the deposited data

Results flagged for a closer look

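Genes whose RFP effect differed between the DLP and another lobe numbered 465 against the AP and 6 against the VP, by the interaction term of the edgeR fit. Against the VP the largest were Bpgm (-3.88 on the log2 scale), Gdpd5 (-3.03), Dnaja4 (-2.89), Mal (2.48) and Tmprss2 (-1.93), whose levels are given above. Against the AP the largest were in genes with few UMIs: Tph1 (10.52), Atp13a4 (-10.32), Kcnj15 (-8.86), Dpysl3 (-8.07) and Hepacam2 (-7.99). The DLP RFP+ sum held 13, 0, 3, 0 and 1 UMIs of these and the DLP RFP- sum of run 3 held 1, 13, 7, 12 and 3, so the fitted sizes depend on how counts near 0 are treated and are no bounds. Kcnj15 had 13.4, 3.13 and 7.61 CPM in AP RFP+ of runs 3, 2 and 1 and none in AP RFP-. No group had the 4 samples needed to look for a sample far from the others.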

How the results depend on the processing

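The run 3 fold counts (61 higher, 713 lower) moved most with scale and filter. Higher and lower genes numbered 250 and 275 with totals without the 50 most abundant genes, 141 and 160 with TMM factors, 129 and 447 as a mean over cells, 149 higher when thinned to 3000 UMIs, 114 and 1562 from 20 CPM, 590 and 4322 with no CPM filter, 840 higher with a limit of 7500 UMIs per cell, and 146 and 135 without Sbp-set cells, a setting chosen after seeing the data.

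The edgeR counts (132 higher, 204 lower) were 361 and 396 with no filter on low counts, 17 and 32 with no replicate block (run), 0 and 0 with only the DLP sums, 18 and 7 without Sbp-set cells, and 118 lower with Krt8+Krt18 of at least 10. DESeq2 gave 109 and 167. Leaving out run 1 or 2 gave 130 to 144 higher and 144 to 247 lower. Run 3 holds the only RFP+ sum and cannot be left out, and the 7500-UMI limit leaves 9 RFP+ cells, which could not be fitted. The AP interaction gave 1 gene without the block, 0 without Sbp-set cells and 113 to 322 without a run. The VP interaction gave 29 by DESeq2, 0 without the block, 1 without Sbp-set cells and 16 to 26 without a run. Luminal shares were 13.6% in RFP+ with the keratin limit of 10, 8.33% in RFP+ with the UMI limit and 29.2% in RFP- with stricter barcode ratios. The Tgm4-set median in RFP+ was 0 when thinned.

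The run 3 log2 ratio reversed under the UMI limit for Sbpl (-2.41), Egr1 (1.27), Klf6 (0.21), Gstm1 (0.50), Dst (0.40) and Mal (2.53), and without Sbp-set cells for Hpgd (0.21), Itga6 (0.22) and Mal (0.88). The edgeR estimate reversed without Sbp-set cells for Itga6 (0.24), Gm42031 (-1.31), Dcaf12l1 (-0.37) and Gchfr (-0.04). The cause was not tested. For single genes 2138 values kept their call. In the fits 72 gained and 182 lost a call, and 88 run 3 ratios crossed the 2-fold limit. Depth limits genes near the 0.803 CPM floor of RFP+.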
